A study of Mus musculus with 7 samples.

Results

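Genes that handle iron and heme were followed in macrophages sorted from injured mouse sciatic nerve, namely Hmox1, Blvrb, Fth1, Ftl1, Slc40a1, Slc11a1, Tfrc, Trf and Cp. They were chosen by name, and all 9 were found among the 23361 genes quantified by RNASeq. The left sciatic nerve of wild-type BALB/cJ mice, an inbred strain, was cut and at once joined again within a conduit. Tissue that had grown across the gap, the regenerative bridge, was taken after 5 days (3 libraries), 14 days (2 libraries) or 28 days (2 libraries). Macrophages were sorted as cells positive for F4/80, CD14, CD11b and CD16/32 after red cell lysis, with other blood cells, Ter119+ red cells and Thy1.2+ fibroblasts gated out. No uninjured nerve was among these libraries, and neither the age of the mice nor the number of mice behind each library is given in the sources used here.

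Macrophages take up dying red cells and cell debris, and free the iron that these contain. Heme oxygenase 1 (Hmox1) opens the heme ring and releases iron. Biliverdin reductase B (Blvrb) belongs to the reductases named for acting on biliverdin, a heme breakdown product. The released iron is held in a protein shell built from ferritin heavy (Fth1) and light (Ftl1) chains, or leaves the cell through ferroportin (Slc40a1), the iron exporter, with the ferroxidase ceruloplasmin (Cp) helping to load it onto transferrin (Trf). Transferrin carries iron to the transferrin receptor (Tfrc), by which cells take it up, and Slc11a1 (Nramp1) moves metal ions across the membrane of the phagosome. BALB/c mice are known to carry a loss-of-function allele of Slc11a1, so that its RNA level is not a level of working protein. Iron also acts on these genes after transcription: iron regulatory proteins bind a short hairpin, the iron-responsive element, which in a 5′ UTR holds back translation and in a 3′ UTR guards the RNA from decay. RNA levels as measured here therefore do not report how much ferritin or ferroportin protein was made.

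The hairpins were looked for in the GENCODE M21 transcripts of the mouse (GRCm38, the same build as the mm10 to which the reads were mapped), since members that carry them may have this second layer of control. The motif searched was a C, 5 bases of any kind and the loop CAGTGN, on the transcript strand only, with the 5 bases before the loop able to pair with the 5 bases after the loop. It was found in 294 of 21901 protein-coding genes (1.34%) and in 4 of the 9 members, in each of them in a UTR. A match describes the sequence and is not a measured binding site, and the lack of a match does not show that no element is present. The 30-base windows below are written in the transcript direction, 5′ to 3′, with the 6-base loop in capitals. In Fth1 and Ftl1 the window lies in the 5′ UTR, at chr19:9982729-9982758 (plus strand) and chr7:45459781-45459810 (minus strand), and both carry the same 5-base arms beside the loop.
Fth1: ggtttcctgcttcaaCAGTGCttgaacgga
Ftl1: tgtgtcttgcttcaaCAGTGTttgaacgga
The window of Slc40a1 also lies in the 5′ UTR, at chr1:45925467-45925496 (minus strand), with other arms.
Slc40a1: ttccaacttcagctaCAGTGTtagctaagt
Tfrc held 4 windows, all in the 3′ UTR on the plus strand, at chr16:32631216-32631245, chr16:32631595-32631624, chr16:32631660-32631689 and chr16:32631707-32631736, in that order.
Tfrc 1: gataattatcggaagCAGTGCcttccataa
Tfrc 2: tcacattatcgggagCAGTGTcttccataa
Tfrc 3: tgtctatatcggagaCAGTGAtctccatat
Tfrc 4: cgtaattatcgggaaCAGTGTttcccataa
The letters of this motif were not found in the other 5 members.

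The libraries held 18027190 to 35247116 fragments assigned to genes, and each member was read in at least 195 fragments in every library. Levels are given as FPKM, fragments corrected for the length of the transcript and the size of the library, which allows genes of unlike length to be compared. Differences between time points are log2 fold changes with their standard error (SE) from edgeR's quasi-likelihood test on the fragments, two-sided, with p-values adjusted by Benjamini-Hochberg over the 12858 genes tested, and a gene was called when its adjusted p was under 0.05. The p-values measure the spread between these libraries, which the labels describe as independent biological replicates. The day 14 libraries stood apart from each other. Replicate 1 correlated more with the day 5 libraries (r = 0.955 to 0.962) than with those of day 28 (0.934 and 0.942), whereas replicate 2 correlated more with day 28 (0.959 and 0.963) than with day 5 (0.934 to 0.937), across 7613 genes that are not independent replicates. Results that involve day 14 are therefore given for both libraries. Of 8 macrophage marker names 7 were in the table, all above 3 fragments in every library, with summed levels of 13204 to 20434 FPKM. The name not found, Adgre1, is another name of Emr1. Most of the sum in each library was Lyz2 alone, at 10675 to 18376.5 FPKM. Fcgr1 had 154 to 171 FPKM at day 5 and 51.4 and 45.0 at day 28, while Csf1r had 406 to 434 at day 5 and 423 and 470 at day 28. The F4/80 gene itself, Emr1, ran from 365 to 470 FPKM at day 5, was 344 and 249 at day 14, and 195 and 209 at day 28.

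Hmox1, the enzyme that breaks heme open, was among the most abundant genes early on and was lower at day 28. Its levels at day 5 were 1029, 1263 and 883 FPKM in replicates 1, 2 and 3. The day 14 libraries had 1023 and 646 FPKM, and the day 28 libraries 549.5 and 552 FPKM. Replicate 1 of day 14 lay within the day 5 range, replicate 2 lay between the other time points, and both day 28 libraries were below every earlier one. Group means were 1058 ± 192 FPKM (SD, n = 3) at day 5, 835 ± 266 (SD, n = 2) at day 14 and 551 ± 1.99 (SD, n = 2) at day 28. Set against day 5, the day 28 level fell by 0.93 in log2 units (SE 0.21, edgeR adjusted p = 0.0204), a ratio of mean FPKM of 1.92. The difference was -0.34 from day 5 to 14 (SE 0.21, edgeR adjusted p = 0.359), with overlapping libraries, and -0.59 from day 14 to 28 (SE 0.23, edgeR adjusted p = 0.340). Over all genes Hmox1 ranked between 41 and 149 by FPKM. The gene (ENSMUSG00000005413) lies on chromosome 8, 75093621 to 75100589, plus strand.

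The call for Hmox1 between days 5 and 28 rested on several libraries. Without 1 library at a time the difference ran from -1.04 to -0.78, and edgeR's adjusted p was 0.0589 without day 5 replicate 1, 0.0698 without day 5 replicate 2, 0.126 without day 28 replicate 1 and 0.0925 without day 28 replicate 2. Without day 14 replicate 1, the log2 difference of Hmox1 between days 5 and 14 was -0.70 (edgeR adjusted p = 0.0314). Without day 14 replicate 2, it was instead lower at day 28 than at day 14, with a difference of -0.88 (edgeR adjusted p = 0.0205). The 2 day 14 libraries thus placed the lower level in different intervals.

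RNA of red cells, like that of Hmox1, was higher in the day 5 libraries and day 14 replicate 1 than in the other 3. Of 11 erythroid markers, 8 were in the table, and their summed level was 43.7, 49.2 and 33.0 FPKM at day 5, 59.7 and 8.28 at day 14, and 3.92 and 12.7 at day 28. In each library but day 28 replicate 1, most of it was the hemoglobin chain Hba-a1, with 26.4 to 40.9 FPKM at day 5, 46.3 and 6.95 at day 14, and 0.0449 and 9.56 at day 28. Hba-a1 and Hba-a2 are near-identical copies, so how reads were split between them is uncertain. The part of red cell RNA in the values of Hmox1 was not tested. In bulk RNA, fewer cells of a type and less RNA per cell cannot be told apart.

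Blvrb, biliverdin reductase B, was higher in both day 28 libraries than at day 5, without passing the test. It had 112, 129 and 98.3 FPKM at day 5, 109 and 157 at day 14, and 147 and 146 at day 28. The day 28 libraries were above all of day 5, and the day 14 libraries lay on either side of them. The mean was 113 ± 15.1 FPKM (SD, n = 3) at day 5, 133 ± 34.2 (SD, n = 2) at day 14 and 147 ± 0.543 (SD, n = 2) at day 28. The difference between days 5 and 28 was 0.39 (SE 0.17, edgeR adjusted p = 0.149) and did not pass the test, although it did when either day 14 library was left out (adjusted p = 0.0410 without replicate 1 and 0.0420 without replicate 2) and the estimate of the spread changed with it. The differences were 0.25 (SE 0.17, edgeR adjusted p = 0.404) between days 5 and 14 and 0.14 (SE 0.19, edgeR adjusted p = 0.799) between days 14 and 28. Blvrb (ENSMUSG00000040466) lies on chromosome 7, 27447978 to 27466144, plus strand.

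**Figure D1:**
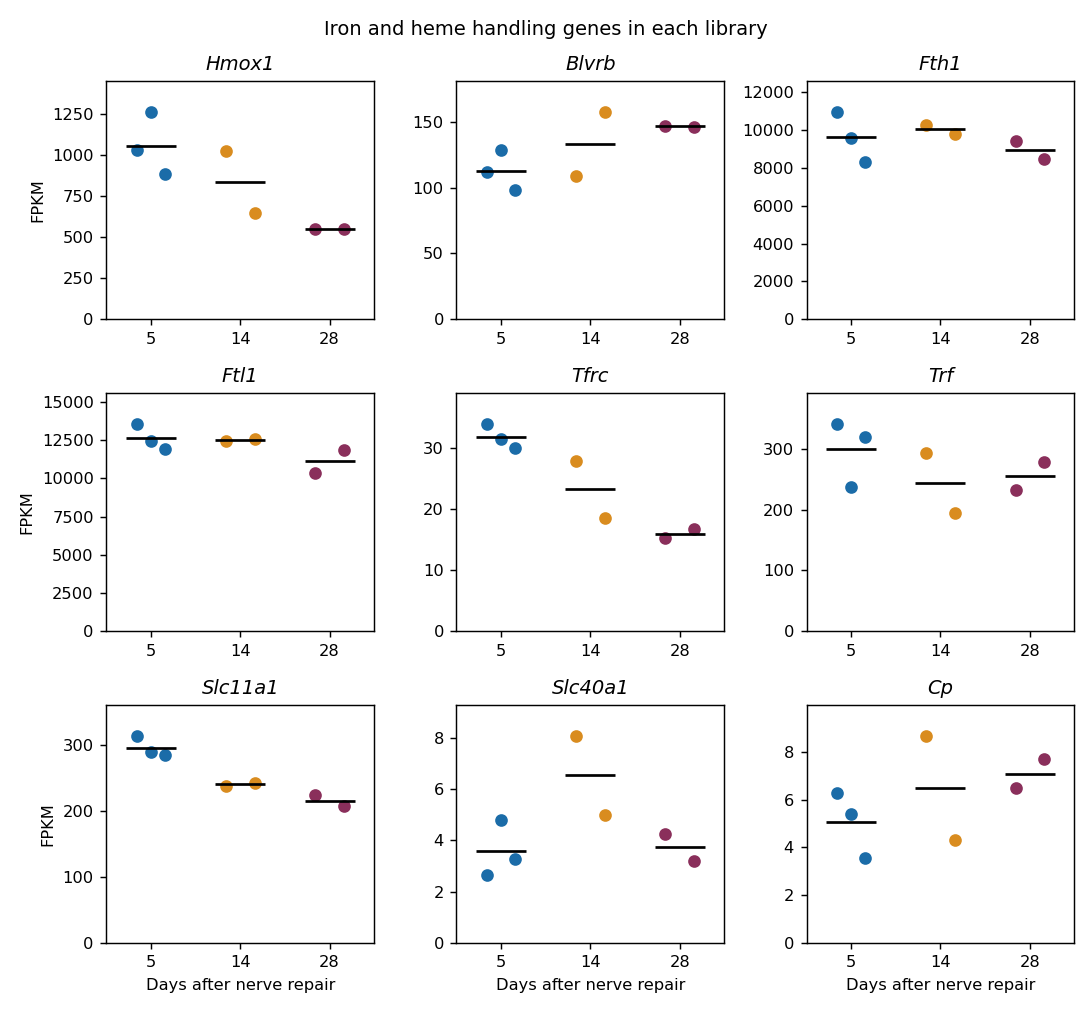
Level of each of the 9 members in FPKM (vertical axis) against days after nerve repair (horizontal axis), with 1 point per library and a horizontal line at each group mean, for 3, 2 and 2 libraries at days 5, 14 and 28. Hmox1, Slc11a1 and Tfrc are lower in both day 28 libraries than in all 3 of day 5, while Fth1 overlaps between these days.

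The ratio of Hmox1 to Blvrb within a library separated day 28 from day 5 and overlapped between days 5 and 14. Both day 14 values lay above those of day 28, replicate 2 by a small margin. The ratio was 9.17, 9.82 and 8.98 at day 5, 9.37 and 4.10 at day 14, and 3.74 and 3.78 at day 28. All 3 early libraries and day 14 replicate 1 had ratios near 9, and day 14 replicate 2 lay beside the day 28 libraries. No test was run on the ratios. With 3 libraries against 2, the smallest p that an exact permutation test allows is 0.1.

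The ferritin chains were among the most abundant RNAs of the cells at every time point, with no difference that passed the test. Fth1 had 10962, 9598 and 8326 FPKM at day 5, 10297 and 9792 at day 14, and 9418 and 8459 at day 28. Ftl1 had 13568, 12429.9 and 11901 FPKM at day 5, 12439.8 and 12577 at day 14, and 10377 and 11887 at day 28. In every library Fth1 ranked 3 or 4 among all genes by FPKM and Ftl1 2 or 3. Both day 28 libraries were below all others for Ftl1 and below both day 14 libraries for Fth1, by small margins.

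Group means of Fth1 were 9629 ± 1318 FPKM (SD, n = 3), 10044 ± 357 (SD, n = 2) and 8939 ± 678 (SD, n = 2) at days 5, 14 and 28, and those of Ftl1 were 12633 ± 852, 12508.5 ± 97.2 and 11132 ± 1068. The log2 differences between days 5 and 28 were -0.09 for Fth1 (SE 0.15, edgeR adjusted p = 0.701) and -0.17 for Ftl1 (SE 0.13, edgeR adjusted p = 0.397). From day 5 to 14 they were 0.07 (SE 0.14, edgeR adjusted p = 0.807) and -0.0053 (SE 0.13, edgeR adjusted p = 0.984), and between days 14 and 28 they were -0.16 for both (SE 0.16 and 0.14, edgeR adjusted p = 0.718 and 0.674). These SEs were smaller than those of the other members apart from Slc11a1. Fth1 and Ftl1 together took 1.53% to 1.83% of all fragments in each library, out of 1.81% to 2.04% for the 9 members.

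The light chain exceeded the heavy chain in every library. The ratio of Ftl1 to Fth1 was 1.24, 1.30 and 1.43 at day 5, 1.21 and 1.28 at day 14, and 1.10 and 1.41 at day 28. The day 28 libraries alone spanned nearly the whole range, so the ratio did not separate the time points. The genome holds many processed pseudogenes of both ferritin chains, and how reads that match several places were shared is not given in the sources used here, so these levels are uncertain. Fth1 (ENSMUSG00000024661) lies on chromosome 19, 9980598 to 9985098, plus strand, and Ftl1 (ENSMUSG00000050708) on chromosome 7, 45457944 to 45459884, minus strand.

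Tfrc, the receptor for iron-loaded transferrin, was lower at the later times. It had 33.9, 31.3 and 29.9 FPKM at day 5, 27.8 and 18.5 at day 14, and 15.2 and 16.7 at day 28. The 3 groups did not overlap, and each later group was below the one before it. Means were 31.7 ± 2.04 FPKM (SD, n = 3), 23.2 ± 6.62 (SD, n = 2) and 15.9 ± 1.09 (SD, n = 2). Tfrc fell by 0.98 in log2 units from day 5 to 28 (SE 0.17, edgeR adjusted p = 0.00673), a ratio of mean FPKM of 1.99, the strongest evidence by p-value among the members.

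The single steps did not pass the test for Tfrc, with -0.45 (SE 0.16, edgeR adjusted p = 0.141) between days 5 and 14 and -0.53 (SE 0.18, edgeR adjusted p = 0.276) between days 14 and 28. As with Hmox1, they depended on the day 14 libraries. Without replicate 1 the first step was -0.76 (edgeR adjusted p = 0.00576), and without replicate 2 the second was -0.80 (edgeR adjusted p = 0.00786). The call from day 5 to 28 was lost only when day 28 replicate 1 was left out, with a difference of -0.91 (edgeR adjusted p = 0.0736). Tfrc (ENSMUSG00000022797), whose 4 hairpins are printed above, lies on chromosome 16, 32608920 to 32632794, plus strand.

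Trf, transferrin itself, varied as much within time points as between them. It had 341, 237 and 319 FPKM at day 5, 293 and 195 at day 14, and 233 and 278 at day 28. The ranges overlapped in all 3 comparisons. Means were 299 ± 54.7 FPKM (SD, n = 3), 244 ± 69.0 (SD, n = 2) and 255 ± 32.2 (SD, n = 2). The log2 difference was -0.29 between days 5 and 14 (SE 0.21, edgeR adjusted p = 0.431), 0.07 between days 14 and 28 (SE 0.22, edgeR adjusted p = 0.922) and -0.22 between days 5 and 28 (SE 0.21, edgeR adjusted p = 0.513). Trf is also made by myelinating and other glia, and the summed level of 7 Schwann cell markers was 13.2 to 15.4 FPKM at day 5, 17.2 and 26.5 at day 14, and 22.9 to 25.2 at day 28, mostly Mbp and Mag, while Sox10 and S100b were near 0. The part of Schwann cell RNA in the values of Trf was not tested. Trf (ENSMUSG00000032554) lies on chromosome 9, 103204001 to 103230444, minus strand.

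Slc11a1, the phagosomal metal transporter, differed little within a day and was lower at day 28. It had 314, 289 and 284 FPKM at day 5, 238 and 241 at day 14, and 224 and 207 at day 28. The 3 groups did not overlap. Means were 296 ± 15.8 FPKM (SD, n = 3), 239.8 ± 2.32 (SD, n = 2) and 215 ± 11.4 (SD, n = 2), and the day 14 libraries sat close together, as they did for the ferritin chains. Slc11a1 fell by 0.44 in log2 units from day 5 to 28 (SE 0.11, edgeR adjusted p = 0.0317), a ratio of mean FPKM of 1.37. The call did not hold without any 1 of the 5 libraries compared, with adjusted p of 0.107 (day 5 replicate 1), 0.0905 (day 5 replicate 2), 0.0788 (day 5 replicate 3), 0.0929 (day 28 replicate 1) and 0.111 (day 28 replicate 2), while the difference stayed between -0.50 and -0.39. The single steps were -0.29 (SE 0.11, edgeR adjusted p = 0.159) and -0.15 (SE 0.12, edgeR adjusted p = 0.664). Slc11a1 (ENSMUSG00000026177) lies on chromosome 1, 74375195 to 74386062, plus strand.

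The export genes were low. Slc40a1, the only known cellular iron exporter, had 2.63, 4.80 and 3.29 FPKM at day 5, 8.10 and 4.99 at day 14, and 4.26 and 3.19 at day 28. Both day 14 libraries were above every other library, replicate 2 by a small margin over day 5 replicate 2. Means were 3.57 ± 1.11 FPKM (SD, n = 3), 6.54 ± 2.2 (SD, n = 2) and 3.72 ± 0.762 (SD, n = 2). The log2 difference between days 5 and 14 was 0.88 (SE 0.28, edgeR adjusted p = 0.0994), which did not pass, whereas DESeq2 called it (adjusted p = 0.0352), as did edgeR without the expression filter (0.0158). Between days 14 and 28 the difference was -0.80 (SE 0.31, edgeR adjusted p = 0.356), and between days 5 and 28 it was 0.09 (SE 0.29, edgeR adjusted p = 0.869). Without day 14 replicate 1 the first difference was 0.50 (edgeR adjusted p = 0.313). Slc40a1 rested on 195 to 524 fragments a library and lies (ENSMUSG00000025993) on chromosome 1, 45908068 to 45926523, minus strand.

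Cp, the ferroxidase, had 6.28, 5.38 and 3.55 FPKM at day 5, 8.69 and 4.32 at day 14, and 6.48 and 7.72 at day 28. The day 14 libraries held both the highest and nearly the lowest value, and both day 28 libraries were above day 5. Means were 5.07 ± 1.39 FPKM (SD, n = 3), 6.50 ± 3.09 (SD, n = 2) and 7.10 ± 0.880 (SD, n = 2). No difference passed, with 0.35 (SE 0.30, edgeR adjusted p = 0.513), 0.15 (SE 0.33, edgeR adjusted p = 0.892) and 0.50 (SE 0.30, edgeR adjusted p = 0.285) from day 5 to 14, from day 14 to 28 and from day 5 to 28. Day 14 replicate 1, highest for Slc40a1 and Cp, also had the highest summed level of 6 fibroblast markers, 222 FPKM, against 80.2 in replicate 2, 27.8 to 72.1 at day 5 and 34.9 to 56.1 at day 28. The part of fibroblast RNA in these 2 genes was not tested. Cp (ENSMUSG00000003617) lies on chromosome 3, 19957054 to 20009145, plus strand.

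**Figure D2:**
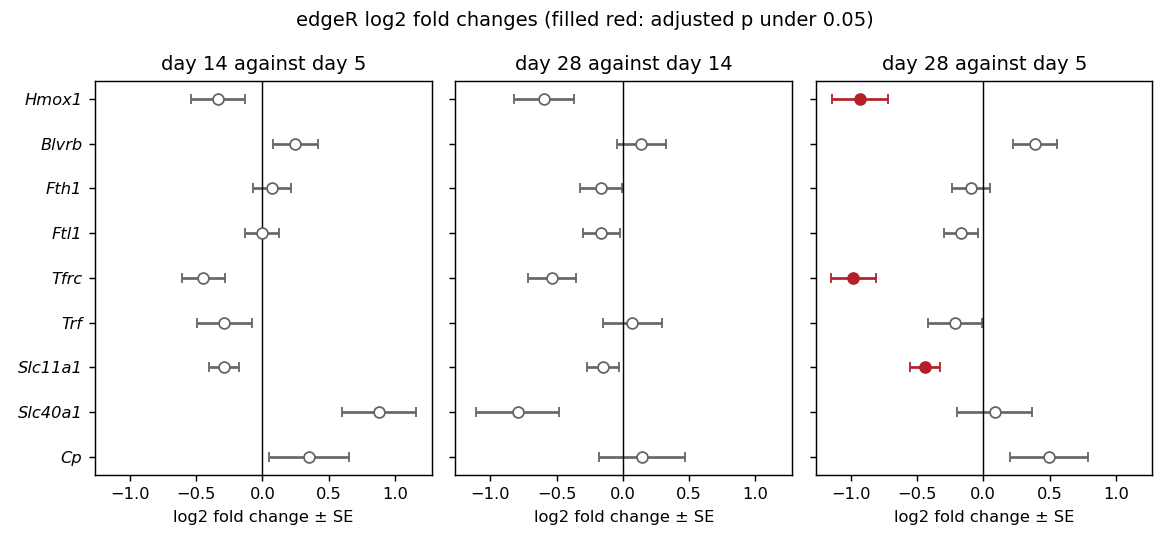
Log2 fold change of the 9 members (horizontal axis) in each of the 3 comparisons, as points with bars of 1 SE from the edgeR fit over 7 libraries, filled where the adjusted p was under 0.05. Only Hmox1, Slc11a1 and Tfrc in day 28 vs day 5 are filled, all at negative values, and the ferritin genes lie close to 0.

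Export and uptake were set side by side as the ratio of Slc40a1 to Tfrc, in FPKM. It was 0.0777, 0.153 and 0.110 at day 5, 0.291 and 0.270 at day 14, and 0.281 and 0.191 at day 28. All 4 later libraries were above all 3 of day 5. At day 14 the 2 libraries had close ratios although each gene's own level differed between them. The group means were 0.114 ± 0.0378 (SD, n = 3), 0.280 ± 0.0148 (SD, n = 2) and 0.236 ± 0.0640 (SD, n = 2).

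**Figure D3:**
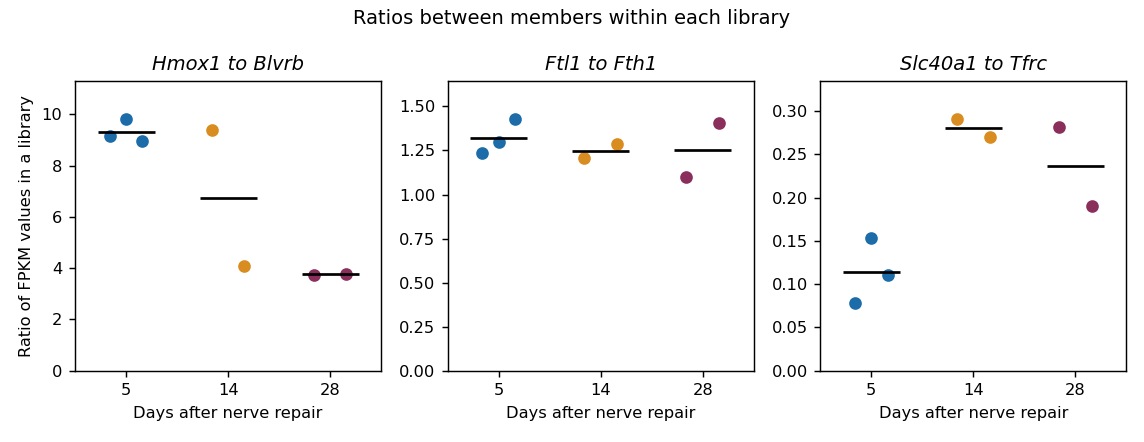
Ratio of FPKM values within a library (vertical axis, from 0) for Hmox1 to Blvrb, Ftl1 to Fth1 and Slc40a1 to Tfrc against days after nerve repair, with 1 point per library and a line at the group mean. Hmox1 to Blvrb is near 9 in 4 libraries and near 4 in 3, Ftl1 to Fth1 overlaps between days, and Slc40a1 to Tfrc is higher in the 4 later libraries than at day 5.

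Counted over the members, 3 of 9 were called between days 5 and 28, all lower, against 15.2% of the genes tested called in either direction and 7.51% called lower. None of the 3 also had a ratio of mean FPKM of 2 with a mean of at least 5 FPKM, as 3.52% of genes did. No member was called between days 5 and 14 with edgeR (4.78% of genes were), with 3 at an unadjusted p under 0.05 (3083 of the 12858 genes were) and 1 called by DESeq2 (1392 genes in all). Nor was any called between days 14 and 28 (0.0622% of genes were), with 3 at an unadjusted p under 0.05 (1570 of the 12858 genes were) and 0 called by DESeq2 (346 genes in all). The limma tests on FPKM also called 0 members in both of these comparisons. The number called between days 5 and 28 was 1 without day 5 replicate 1, day 5 replicate 2 or day 28 replicate 2, and 0 without day 28 replicate 1. It was 2 without day 5 replicate 3 and 4 without either day 14 library.

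Without reference to a test, the FPKM ranges of days 14 and 28 did not overlap for 6 of 9 members, all lower at day 28, against 19.7% of all genes tested that were apart in that direction. Between days 5 and 14, 1 member was apart and higher (21.9% of genes) and 2 were apart and lower (21.4%), and between days 5 and 28, 2 were apart and higher (26.0%) and 4 apart and lower (25.6%). The median log2 difference of the members was -0.0053 from day 5 to 14, -0.16 from day 14 to 28 and -0.17 from day 5 to 28, beside 0.03, 0.01 and 0.03 over all genes tested. The comparisons share libraries, so these counts are not independent of each other. In day 14 replicate 1, 6 of 9 members were nearer to the day 5 mean than to that of day 28 on the log2(FPKM + 1) scale (54.4% of all genes tested were), and in replicate 2, 3 of 9 (36.4%). Hmox1, Blvrb, Tfrc and Trf switched sides between the 2 libraries in this direction, Cp in the opposite one.

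The members also differed in how they varied together. Across the 7 libraries, which share the time points, Pearson's r of log2(FPKM + 1) was 0.946 between Hmox1 and Tfrc, 0.882 between Slc11a1 and Tfrc, and 0.795 between Hmox1 and Slc11a1. It was -0.818 between Blvrb and Tfrc and -0.819 between Blvrb and Trf. Fth1 and Ftl1, whose proteins form 1 complex, had r = 0.526. Among 12857 genes, the one most like Hmox1 was Slfn5 (r = 0.9945), those most like Slc11a1 were Gmfg (0.9889) and Pde8a (0.987), and those most like Tfrc were BC094916 (0.9961) and Stat3 (0.9956). An r over 0.9 was common, with 411, 383 and 808 genes for the 3 members, so these names describe the 7 libraries and no more.

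Other genes of iron and heme handling came from a list of 57 symbols, of which 54 were in the table and 46 were expressed enough to be tested. From day 5 to 14, 2 rose and 1 fell, where 2.84% of all genes tested rose and 1.94% fell (median log2 difference of the list 0.12, with 18 of 46 at an unadjusted p under 0.05 beside 3083 of 12858 genes). Between days 14 and 28 edgeR called 0 (10 of 46 at an unadjusted p under 0.05, beside 1570 of 12858 genes), DESeq2 called 2 and limma 0, and from day 5 to 28, 2 rose and 4 fell, where 7.74% and 7.51% of genes did (median of the list -0.05, with 16 of 46 at an unadjusted p under 0.05 beside 4046 of 12858 genes). Heme breakdown held 2 of the 4 that fell, and heme synthesis 1 that rose and 1 that fell. The counts moved with single libraries. From day 5 to 14 the list had 10 called genes without day 14 replicate 1, 2 without day 14 replicate 2 and 0 without any 1 of the other 5, and between days 14 and 28 it had 8 without day 14 replicate 2, among them Alas1, which was higher at day 28, and Alas2, Cd163, Bach1, Spic and Lcn2, which were lower. From day 5 to 28 it had 11 and 12 without day 14 replicates 1 and 2, 1 without day 5 replicate 1, day 5 replicate 3 or day 28 replicate 1, 2 without day 5 replicate 2 and 3 without day 28 replicate 2.

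Alas1, which catalyses the first step of heme synthesis in most cells, rose the most clearly. It had 20.6, 23.7 and 20.9 FPKM at day 5, 31.2 and 51.6 at day 14, and 66.8 and 60.7 at day 28. The 3 groups did not overlap. The log2 difference was 0.94 between days 5 and 14 (SE 0.19, edgeR adjusted p = 0.0318) and 1.57 between days 5 and 28 (SE 0.19, edgeR adjusted p = 0.00183). The second call kept its side of the threshold without any 1 library, whereas the first was lost without any 1 library other than day 14 replicate 1, with adjusted p from 0.0551 to 0.109 and a difference of 0.53 without day 14 replicate 2. Over the 9 genes of heme synthesis tested, 1 was called higher and 0 lower between days 5 and 14, and 1 higher and 1 lower between days 5 and 28.

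The gene that was lower in that group was Alas2, the form of the enzyme used by red cell precursors. It had 47, 93 and 66 fragments at day 5, 99 and 22 at day 14, and 0 and 9 at day 28. As for the summed erythroid markers, of which Alas2 is one, the 4 libraries with the higher values were those of day 5 and day 14 replicate 1. The fitted difference between days 5 and 28 was -4.07 (SE 1.16, edgeR adjusted p = 0.0443), a value that depends on few fragments, and it did not pass with DESeq2 (adjusted p = 0.0685). The fitted value ran from -9.25 without day 28 replicate 2, which leaves the library at 0 alone at that day, to -2.72 without day 28 replicate 1. With 1 library left out the adjusted p was 0.0806 (day 5 replicate 1), 0.116 (day 5 replicate 2), 0.0876 (day 5 replicate 3) and 0.208 (day 28 replicate 1). The hairpin motif was found in 2 genes of the longer list, Keap1, where it lay in the coding sequence, and Alas2. In Alas2 it lay in the 5′ UTR at chrX:150547455-150547484 (plus strand).
Alas2: tctttggttcgtcctCAGTGCagggcaaca

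Por and Blvra fell together with Hmox1 between days 5 and 28. Cytochrome P450 reductase (Por) passes electrons to heme oxygenase, and biliverdin reductase A (Blvra) turns biliverdin into bilirubin. Por had 248, 214 and 206 FPKM at day 5, 179 and 94.9 at day 14, and 80.1 and 123 at day 28, a log2 difference of -1.12 between days 5 and 28 (SE 0.27, edgeR adjusted p = 0.0237), and -0.70 between days 5 and 14 (edgeR adjusted p = 0.147, DESeq2 0.0397). Blvra had 97.5, 103 and 104 FPKM at day 5, 90.1 and 77.5 at day 14, and 74.6 and 67.8 at day 28, a difference of -0.50 (SE 0.11, edgeR adjusted p = 0.0198). For Blvra the 3 groups did not overlap, and for Por day 14 replicate 2 lay between the day 28 libraries. These were 2 of the 7 genes of heme breakdown and its regulators, none of which was called higher. Neither call held without any 1 of the day 5 libraries (adjusted p from 0.0532 to 0.0801 for Por and 0.0537 to 0.0713 for Blvra) or without day 28 replicate 1 (0.179 and 0.0691), and that for Blvra not without day 28 replicate 2 (0.0923).

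The regulators of Hmox1 were measured beside it. Nfe2l2 (NRF2), which activates Hmox1, had 217, 186 and 179 FPKM at day 5, 142 and 134 at day 14, and 153 and 155 at day 28, with a log2 difference of -0.48 between days 5 and 14 (SE 0.12, edgeR adjusted p = 0.0562). Bach1, a repressor that heme releases from the DNA, had 109, 92.0 and 82.7 FPKM at day 5, 92.0 and 44.8 at day 14, and 49.4 and 56.5 at day 28, a difference of -0.83 between days 5 and 28 (SE 0.26, edgeR adjusted p = 0.0638). Spic, the heme-induced factor of red pulp macrophages, had 7.44, 6.25 and 7.29 FPKM at day 5, 13.7 and 5.19 at day 14, and 4.08 and 4.59 at day 28. Its difference between days 14 and 28 was -1.11 (edgeR adjusted p = 0.291). None of the 3 passed with edgeR, though both day 28 libraries were the lowest for Spic, and for Bach1 only day 14 replicate 2 was lower. DESeq2 called Nfe2l2 between days 5 and 14 (adjusted p = 0.00539) and Bach1 between days 5 and 28 (0.00548), as did edgeR without the expression filter (0.0289 and 0.00462). In a fit on days 5 and 28 alone, Bach1 (0.00180) and Spic (0.0484) passed. Without day 14 replicate 1, the log2 difference between days 5 and 14 was -0.52 for Nfe2l2, -1.07 for Bach1 and -0.42 for Spic. Without day 14 replicate 2 it was -0.04 for Bach1 and 0.97 for Spic. The adjusted p between days 5 and 28 was 0.00145 and 0.00163 for Bach1 without day 14 replicates 1 and 2, and 0.0369 for Spic without replicate 2.

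Cd163, the receptor for hemoglobin bound to haptoglobin, split the day 14 libraries more than any member. It had 18.5, 18.3 and 17.8 FPKM at day 5, 21.1 and 5.80 at day 14, and 9.70 and 10.8 at day 28. Replicate 1 of day 14 was above and replicate 2 below every other library. The difference between days 5 and 28 was -0.82 (SE 0.40, edgeR adjusted p = 0.195) with all 7 libraries, and passed in a fit on days 5 and 28 alone (adjusted p = 3.78e-04), in which the day 14 spread has no part. Without day 14 replicate 1 Cd163 was called between days 5 and 14 (-1.64, adjusted p = 1.28e-04), and without replicate 2 between days 14 and 28 (-1.04, adjusted p = 0.00164). Abcg2, an exporter that accepts porphyrins, had 2.90, 4.39 and 3.19 FPKM at day 5, 4.32 and 5.41 at day 14, and 5.94 and 5.56 at day 28, a rise of 0.74 in log2 units from day 5 to 28 (SE 0.21, edgeR adjusted p = 0.0454). It was not called by limma on log2(FPKM + 1) (adjusted p = 0.0572), nor without day 5 replicate 1 (0.143), day 5 replicate 3 (0.126), day 28 replicate 1 (0.202) or day 28 replicate 2 (0.111).

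Fbxl5 and Ncoa4 were called between days 5 and 14. Fbxl5, which marks iron regulatory protein 2 for decay when iron is plentiful, had 61.0, 56.0 and 61.2 FPKM at day 5, 33.0 and 42.2 at day 14, and 42.9 and 34.2 at day 28. All 4 later libraries were below all 3 of day 5. Fbxl5 fell by 0.66 in log2 units from day 5 to 14 (SE 0.15, edgeR adjusted p = 0.0401) and its difference from day 5 to 28 was -0.62 (SE 0.15, edgeR adjusted p = 0.0232). Ncoa4, the receptor that brings ferritin to the lysosome, had 45.2, 44.4 and 48.2 FPKM at day 5, 64.4 and 61.6 at day 14, and 55.6 and 52.5 at day 28. It rose by 0.46 between days 5 and 14 (SE 0.10, edgeR adjusted p = 0.0415), while neither ferritin gene was called. Both day 14 calls are near the threshold, and a fit on days 5 and 14 alone gave adjusted p of 0.0515 for Fbxl5 and 0.0549 for Ncoa4. Leaving out single libraries gave adjusted p of 0.0509 to 0.121 for Fbxl5 (lost without any 1 library other than day 14 replicate 2) and 0.0550 to 0.148 for Ncoa4 (lost without any 1 other than day 14 replicate 1). The call for Fbxl5 between days 5 and 28 was lost without any 1 library of those days (0.0553 to 0.120).

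The iron regulatory proteins themselves were not called by edgeR. Ireb2 (iron regulatory protein 2) had 10.3, 10.8 and 10.6 FPKM at day 5, 8.0 and 7.20 at day 14, and 11.0 and 8.41 at day 28, with a difference of -0.46 between days 5 and 14 (edgeR adjusted p = 0.0777), which DESeq2 called (0.0393) and edgeR without the expression filter did too (0.0388). Aco1 (iron regulatory protein 1) had 13.7, 13.6 and 16.1 FPKM at day 5, 14.2 and 17.3 at day 14, and 17.1 and 18.1 at day 28, with 0.30 between days 5 and 28 (edgeR adjusted p = 0.150). Lcn2, which binds bacterial iron carriers and is abundant in neutrophils, had 9.0, 7.75 and 6.72 FPKM at day 5, 18.5 and 11.8 at day 14, and 7.90 and 6.69 at day 28. Its difference of 0.95 between days 5 and 14 did not pass (edgeR adjusted p = 0.0616), though it did without day 14 replicate 2 (0.0405), with DESeq2 (0.0211) and without the expression filter (0.0217). Between days 14 and 28 it was -1.03 (edgeR adjusted p = 0.185, DESeq2 0.0498). The summed level of 6 neutrophil markers was 258 to 285 FPKM at day 5, 522 and 533 at day 14, and 117 to 261 at day 28. It was mostly S100a8 and S100a9, while Elane had 0 fragments in every library, Ngp 0 to 27 and Camp 0 to 5. The part of neutrophil RNA in Lcn2 was not tested. Hamp, the hormone hepcidin that removes ferroportin from the cell surface, had 0 to 22 fragments a library and was not tested.

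**Figure D4:**
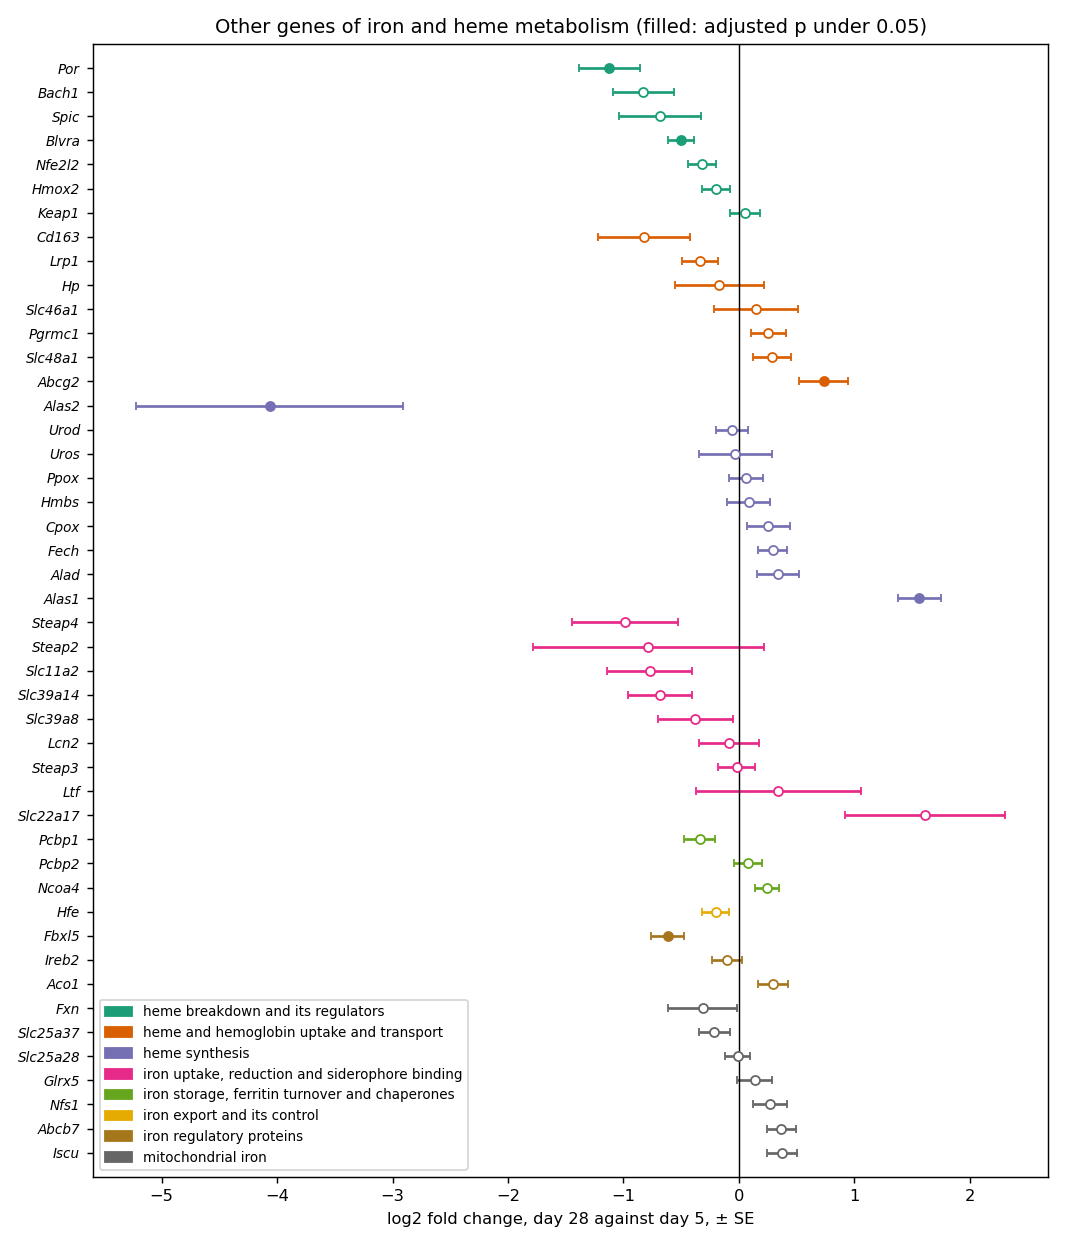
Log2 fold change between days 5 and 28 (horizontal axis) of the 46 other iron and heme genes tested, grouped by role in colour, with bars of 1 SE from the edgeR fit and filled points where the adjusted p was under 0.05. Alas1 and Abcg2 are filled to the right of 0, and Blvra, Por, Fbxl5 and Alas2 to the left.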

How the data were processed

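RNASeq of sorted macrophages was analysed for 7 libraries at 3 time points. The authors used cutadapt 1.8 to trim the single-end reads, TopHat2 2.0.13 to map them to mm10 and, for 23361 genes, Cuffdiff 2.2.1 to quantify them (versions per the submitters' processing notes). The expected counts are the fragments per gene as deposited by the authors before scaling, of which 0.947% were not whole. The scaled signal deposited by the authors is that count times 1 factor per library, set by Cuffdiff. From this signal the authors also derived and deposited FPKM values. How multi-mapped reads and strand were handled is not given in the sources used here. The quantification status was a failure in 8 values of the table, none of them in a member.

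Rounded expected counts went into edgeR 4.0.16, run in R 4.3.3 (TMM, expression filter by time point, 12858 genes tested, 7 libraries fitted together by time point, 4 residual degrees of freedom). With 18027190 to 35247116 fragments per library, a floor of 3 fragments was 1.66e-05% to 8.51e-06% of a library, which covers counting error only. Means and SDs are of FPKM. Ratios and the hairpin search used Python 3.11.15 with numpy 2.4.6 and pandas 2.3.3, and plots matplotlib 3.10.9. Scripts were tested on simulated data. Gene positions and transcripts are those of GENCODE M21 on GRCm38.

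The members and lists were chosen with earlier results of these data known. Named were all 9 members, each gene of the longer list called in at least 1 comparison, and Cd163, Nfe2l2, Bach1, Spic, Ireb2, Aco1 and Lcn2 whatever their values. Markers of 8 cell types were summed per library, and those of endothelial, T and B cells had 3.66 to 26.4, 3.80 to 13.6 and 4.42 to 10.8 FPKM in all. Alternatives were DESeq2 1.42.0, RLE and Cuffdiff scaling, no expression filter, limma 3.58.1 on log2 FPKM with a pseudocount of 1 or 0.1, fits on 2 time points, the replicate block, each library left out, an adjusted p under 0.01, and a 2-fold difference together with mean FPKM 5 in 1 of the days. The authors' own test columns were not used.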

Additional observations from a re-analysis of the deposited data

How the results depend on the processing

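No value changed direction past a threshold under any alternative run. Over the 3 comparisons, 410 log2 differences of the members stayed on their side of the threshold, 13 no longer passed and 9 came to pass. The 13 losses all fell on the 3 member calls between days 5 and 28, so most of the 410 were uncalled values that stayed uncalled. For the named genes of the longer list the numbers were 572, 68 and 32. Those 68 losses fell on its 3 calls between days 5 and 14 and its 6 between days 5 and 28. Between days 5 and 14 the members called (0) became 1 with DESeq2 and 1 without the expression filter, and ran from 0 to 2 with 1 library left out. Between days 14 and 28 (0) they ran from 0 to 2 with 1 library left out. Between days 5 and 28 (3) they were 1 at an adjusted p under 0.01 and 0 with a 2-fold difference and FPKM 5, and ran from 0 to 4 with 1 library left out. For the longer list, days 5 and 14 (3) gave 9 with DESeq2, 8 without the filter, 0 and 1 with limma (pseudocounts 1 and 0.1), and 0 with 2 time points, at 0.01 and with 2-fold, and 0 to 10 with 1 library left out. Days 14 and 28 (0) gave 2 with DESeq2, 2 without the filter and 0 to 8 with 1 library left out. Days 5 and 28 (6) gave 10 without the filter, 12 with 2 time points, 1 at 0.01, 2 with 2-fold and 1 to 12 with 1 library left out.

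Over all genes, days 5 and 14 (614) gave 1392 with DESeq2, 1429 without the filter, 252 and 277 with limma, 315 with 2 time points, 24 at 0.01, 150 with 2-fold and 52 to 1728 with 1 library left out. Days 14 and 28 (8) gave 346 with DESeq2, 390 without the filter, 0 with limma, with 2 time points and at 0.01, and 0 to 629 with 1 library left out. Days 5 and 28 (1960) gave 597 at 0.01, 452 with 2-fold and 452 to 2746 with 1 library left out. Where a day 14 or day 28 library was left out, the lone one was assumed to vary like the other groups. The causes were not tested.

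Replicate numbers are shared between days, and the numbers were not taken to pair the samples. Over 7613 genes the departures from the group mean of libraries with 1 number correlated at 0.175 and 0.0449 (days 5 and 14), -0.0538 (days 14 and 28) and 0.0842 and 0.0249 (days 5 and 28). In a group of 2 libraries these departures are mirror images, so the correlations cannot decide whether the numbers pair samples. With the replicate block, which leaves 2 residual degrees of freedom, 2 members were called between days 5 and 28 (Hmox1 and Tfrc, with Slc11a1 at an adjusted p of 0.0916), the longer list gave 0, 0 and 1 calls in the 3 comparisons in the order above, and all genes 6, 0 and 735.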
